A study of Homo sapiens with 6 samples.

Results

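Receptors for hematopoietic growth factors and for interferon-gamma (IFN-gamma) were examined in acute myeloid leukemia (AML) cells exposed to Withaferin A (WFA). The 8 receptor genes KIT, FLT3, CSF1R, CSF3R, CSF2RB, IGF1R, IFNGR1 and IFNGR2 were taken by name from a count table of 26485 genes. Earlier results of these data were known when these receptors were chosen. The cells were THP1, a human acute monocytic leukemia line grown in medium with fetal bovine serum. One group received WFA, a steroidal lactone from the plant Withania somnifera, and the other its DMSO vehicle, each for 6 h, with 3 RNA-seq libraries per group. The labels give the WFA concentration as 1 mM. The study's methods give the same figure in μM, so the unit differs between the sources. All libraries came from a single cell line with no genetic change named in the labels, and DMSO and WFA libraries share replicate numbers. RNA was measured, not receptor protein or receptor at the cell surface.

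With WFA 4 of the 8 receptor transcripts fell, KIT, FLT3, CSF1R and IGF1R, and CSF3R and CSF2RB rose, while the 2 chains of the IFN-gamma receptor did not pass the test. The fall of KIT was by far the deepest, to 11.6% of its DMSO level. These counts are to be read against the whole table. Of the 12854 genes that had enough reads to be tested, 24.7% were lower with WFA and 25.8% higher (edgeR adjusted p-value below 0.05), or 50.5% in either direction. A log2 change stands below for the log2 fold change, WFA minus DMSO, with SE for its error. KIT alone, 1 of 8 receptors, was over 2-fold lower, against 5.20% of tested genes. No receptor rose over 2-fold in edgeR's test, as 8.11% of tested genes did. The median log2 fold change was -0.22 over the 8 receptors and 0.02 over the tested genes.

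These receptors fall into 3 families. KIT, FLT3, CSF1R and IGF1R are receptor tyrosine kinases, whose paired chains phosphorylate each other once the ligand is bound and recruit adaptor proteins that start the RAS and PI3-kinase pathways. KIT, FLT3 and CSF1R pair upon binding their ligand, whereas IGF1R is already a linked pair. CSF3R and CSF2RB have no kinase of their own and work through Janus kinases (JAK) and STAT factors, as do IFNGR1, which binds IFN-gamma, and IFNGR2, which carries the signal with it. In the blood system KIT and FLT3 mark stem and progenitor cells, CSF1R marks monocytes and macrophages, and CSF3R supports the growth and maturation of granulocytes. FLT3 and KIT are both found mutated in AML.

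The promoters are shown for 3 receptors with unequal falls, KIT, FLT3 and CSF1R, because factors that control them, MYB, SPI1 (PU.1) and RUNX1, are described further on. Sequences are the 250 bases before a transcription start in RefSeq (GRCh38.p14), written 5′ to 3′ along the gene's strand in lower case, with capitals where a searched motif matched. The motifs, each searched on both strands, were AACNG for MYB, GAGGAA for PU.1, TGTGGT for RUNX and AGATAA for GATA factors.
KIT promoter, chr4:54657707-54657956, plus strand: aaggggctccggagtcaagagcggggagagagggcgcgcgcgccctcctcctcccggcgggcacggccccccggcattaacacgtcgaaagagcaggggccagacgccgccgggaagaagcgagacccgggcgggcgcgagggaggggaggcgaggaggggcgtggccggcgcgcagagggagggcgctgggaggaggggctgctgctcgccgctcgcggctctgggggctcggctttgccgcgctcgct
FLT3 promoter, chr13:28100577-28100826, minus strand: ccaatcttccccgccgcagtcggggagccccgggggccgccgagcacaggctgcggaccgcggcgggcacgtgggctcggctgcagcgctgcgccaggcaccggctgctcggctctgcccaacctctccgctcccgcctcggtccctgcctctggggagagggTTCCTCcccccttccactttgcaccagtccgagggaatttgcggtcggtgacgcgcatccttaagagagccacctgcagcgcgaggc
CSF1R promoter at its downstream start, chr5:150086555-150086804, minus strand: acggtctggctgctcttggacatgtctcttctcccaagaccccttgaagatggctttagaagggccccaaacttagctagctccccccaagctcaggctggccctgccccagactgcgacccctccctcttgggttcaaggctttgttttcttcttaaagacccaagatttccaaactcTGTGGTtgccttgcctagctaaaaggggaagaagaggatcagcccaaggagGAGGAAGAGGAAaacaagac
None of these letters occurred in the KIT window, which was 76.4% G and C. In the FLT3 window, TTCCTC is GAGGAA read on the opposite strand, 82 to 87 bases before the start. In the CSF1R window 2 copies of GAGGAA lay next to each other, 9 to 14 and 15 to 20 bases before the start. TGTGGT lay 66 to 71 bases before this start. The window at the upstream CSF1R start, chr5:150113366-150113615, is not printed and held no match of any of the motifs. GAGGAA was present in 23.6%, TGTGGT in 11%, AACNG in 70.6% and AGATAA in 9.17% of 35116 promoter windows of this length. Of the 10 windows listed for 7 of the receptors, 4 held GAGGAA, 4 held AACNG, 1 held TGTGGT and 0 held AGATAA. Besides FLT3 and CSF1R, GAGGAA lay in windows of CSF3R, which rose, and IFNGR1, which did not pass the test. The windows with AACNG were those of CSF3R, IGF1R, IFNGR1 and IFNGR2. Whether a motif bears on the direction of change was not tested. CSF2RB was not in the promoter table.

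The 6 libraries held between 11006035 and 13872810 counted reads. Levels are given as CPM, reads scaled to a common library size with TMM factors, and 3 reads correspond to between 0.211 and 0.279 CPM in these libraries. Replicate libraries differed beyond sampling noise, so none was treated as a duplicate. Of 13 monocytic markers of THP1 cells 12 had enough reads to be tested, and ELANE was at 0 in each library. The summed level of these markers was 4278 to 5015 CPM with DMSO and 4124 to 5210 CPM with WFA. CD33, a myeloid surface antigen, fell (log2 fold change -0.85, SE 0.10, edgeR adjusted p = 6.99e-06), as did FCER1G (-0.42), and CD68 rose (0.37). This leaves 9 tested markers that did not pass, while 50.5% of all tested genes did pass. Markers of other cells were close to 0. HBA1, HBB, PF4 and KRT5 had no count in any library, CD3D, CD3E, MS4A1 and EPCAM had at most 3, and the sum over the 12 such markers was 1.27 to 2.42 CPM with DMSO. It was 11.03 to 14.4 CPM with WFA, mostly COL1A1, a collagen gene of fibroblasts, which went from 3, 4 and 10 counts to 107, 106 and 135. Whether this bears on the receptors was not tested. In bulk RNA, fewer cells with a transcript and less transcript per cell cannot be told apart.

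KIT, the receptor for stem cell factor, lies at chr4:54657957-54740715. KIT was at 17.9, 20.9 and 16.9 CPM in DMSO replicates 1, 2 and 3, and at 1.96, 2.98 and 1.40 CPM in the WFA replicates. Each WFA library lay below each DMSO library, and the highest WFA value was well under the lowest DMSO value. The means were 18.6 ± 2.04 and 2.11 ± 0.803 CPM (SD, n = 3 each). This is a log2 change of -3.11 (SE 0.21, 95% interval -3.57 to -2.66, edgeR adjusted p = 2.19e-08), or 8.65-fold lower. KIT held rank 8 among all tested genes ordered from the deepest fall. The WFA values rest on 24, 37 and 15 reads, against 255, 264 and 203 with DMSO.

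FLT3, the receptor for FLT3 ligand, lies at chr13:28003274-28100576. FLT3 was at 119, 132 and 105 CPM in the DMSO replicates and at 61.8, 79.8 and 52.5 CPM in the WFA replicates. The groups did not overlap, and in both of them replicate 2 was highest and replicate 3 lowest. FLT3 fell to 54.7% of its DMSO level, with a log2 change of -0.87 (SE 0.13, edgeR adjusted p = 5.64e-05). CSF1R, the receptor for macrophage colony-stimulating factor and for interleukin-34, lies at chr5:150053295-150113365. CSF1R was at 231, 252 and 228 CPM with DMSO and at 165, 200 and 174 CPM with WFA. Again each WFA library lay below each DMSO library, although the step was smaller. CSF1R fell to 76.0% of its DMSO level, with a log2 change of -0.40 (SE 0.09, edgeR adjusted p = 0.00238).

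IGF1R, the receptor for insulin-like growth factors, lies at chr15:98648539-98964530 and was a low transcript. It was at 6.05, 5.05 and 6.999 CPM with DMSO and at 4.82, 2.74 and 4.19 CPM with WFA. The groups did not overlap, but the highest WFA library came close to the lowest DMSO library. IGF1R fell to 64.9% of its DMSO level, with a log2 change of -0.63 (SE 0.23, edgeR adjusted p = 0.0324). This call rests on few reads, between 34 and 86 per library. It was lost when DMSO replicate 1 (-0.62, edgeR adjusted p = 0.0671), DMSO replicate 3 (-0.51, edgeR adjusted p = 0.115), WFA replicate 2 (-0.42, edgeR adjusted p = 0.146) or WFA replicate 3 (-0.67, edgeR adjusted p = 0.0523) was left out.

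**Figure D1:**
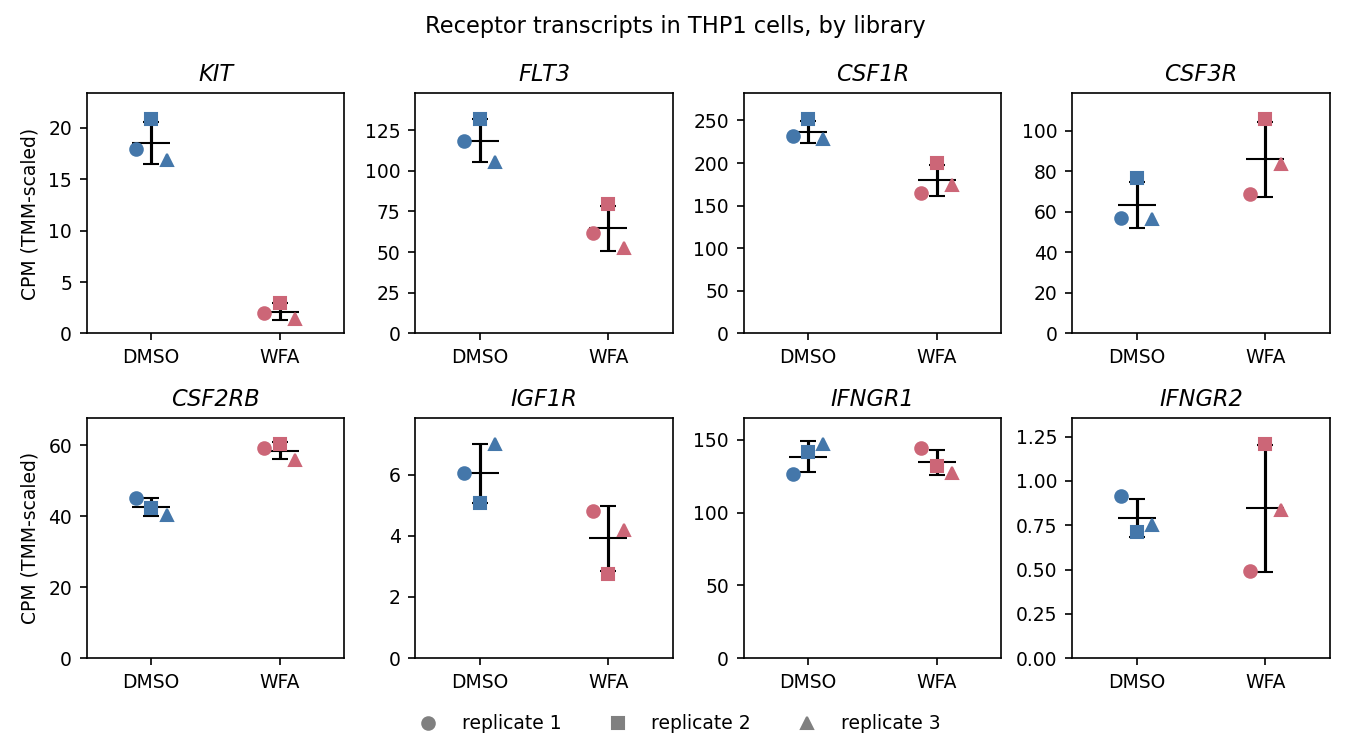
Level of each receptor transcript in CPM (linear axes from 0, a scale for each gene) in the 3 DMSO and 3 WFA libraries, with symbols for the replicate number and bars for mean and SD. The WFA libraries lie below the DMSO libraries for KIT, FLT3, CSF1R and IGF1R and above them for CSF2RB, and the groups overlap for CSF3R, IFNGR1 and IFNGR2.

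CSF2RB and CSF3R went the other way. CSF2RB, the beta chain shared by the receptors for GM-CSF, interleukin-3 and interleukin-5, lies at chr22:36913628-36940439. CSF2RB was at 45.2, 42.3 and 40.3 CPM with DMSO and at 59.4, 60.4 and 55.7 CPM with WFA. Each WFA library lay above each DMSO library, with little spread in either group. CSF2RB rose 1.37-fold, with a log2 change of 0.46 (SE 0.09, edgeR adjusted p = 0.000774). CSF3R, the receptor for granulocyte colony-stimulating factor, lies at chr1:36466043-36483314. CSF3R was at 57.1, 76.4 and 56.2 CPM with DMSO and at 68.9, 106 and 83.3 CPM with WFA. The groups overlapped, because DMSO replicate 2 was higher than WFA replicate 1, while within each same-numbered pair the WFA library was the higher one. CSF3R rose 1.36-fold, with a log2 change of 0.44 (SE 0.15, edgeR adjusted p = 0.0190). This call was lost without DMSO replicate 1 (0.37, edgeR adjusted p = 0.0851), DMSO replicate 3 (0.37, edgeR adjusted p = 0.082) or WFA replicate 2 (0.27, edgeR adjusted p = 0.115).

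The chains of the IFN-gamma receptor did not pass the test. IFNGR1, at chr6:137197484-137219385, was at 127, 142 and 147 CPM with DMSO and at 144, 132 and 127 CPM with WFA. The groups overlapped almost fully. The log2 change of IFNGR1 was -0.04 (edgeR adjusted p = 0.719), and its 95% interval of -0.23 to 0.15 leaves room for a small change in either direction. IFNGR2, at chr21:33402882-33437516, had 13, 9 and 9 reads with DMSO and 6, 15 and 9 reads with WFA, which is between 0.490 and 1.21 CPM. At this depth a change of IFNGR2 was not detectable, since the 95% interval of its log2 change of 0.09 ran from -0.75 to 0.93 (edgeR adjusted p = 0.869). Neighbouring genes had many reads. IFNAR1, IFNAR2 and IL10RB, which encode chains of related receptors and lie within 200 kb of IFNGR2, had between 936 and 2892 reads per library. TMEM50B, which overlaps IFNGR2 by 5031 bases, had at most 1. Whether the counting of reads in overlapping genes lowered IFNGR2 was not tested, and the level of this transcript is uncertain.

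**Figure D2:**
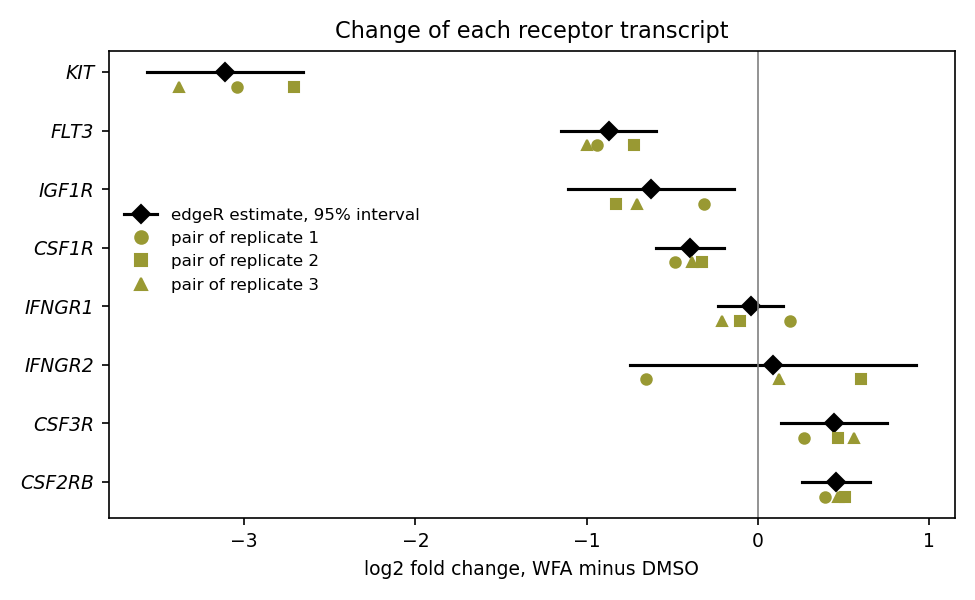
Log2 fold change of each receptor transcript, WFA minus DMSO, with the edgeR estimate and its 95% interval (black) and the difference within each same-numbered pair of libraries (symbols). KIT stands apart at -3.11, the intervals of IFNGR1 and IFNGR2 span 0, and the pairs of each of the other receptors lie on one side of 0.

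Over all 8 receptors, 5 had groups of libraries that did not overlap, against 58.1% of tested genes. An exact two-sided permutation test on these 5 gave p = 0.1 each, the smallest that 3 libraries against 3 allow. The exact permutation test gave p = 0.2 for CSF3R, p = 0.8 for IFNGR1 and p = 1 for IFNGR2.

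Levels of different receptors were compared per kb of exon, on the CPM per kb scale. With DMSO the order was CSF1R (59.4), IFNGR1 (47.1), FLT3 (30.9), CSF3R (18.3), CSF2RB (8.73), KIT (3.58), IGF1R (0.493) and IFNGR2 (0.348), as means of 3 libraries. Neighbours in this order did not overlap between libraries, although IGF1R (0.413 to 0.572) and IFNGR2 (0.312 to 0.401) nearly met. With WFA the order was IFNGR1 (45.7), CSF1R (45.1), CSF3R (24.9), FLT3 (16.8), CSF2RB (11.99), KIT (0.407), IFNGR2 (0.371) and IGF1R (0.320). Here 4 neighbouring pairs overlapped, namely IFNGR1 with CSF1R, CSF3R with FLT3, KIT with IFNGR2, and IFNGR2 with IGF1R. KIT thus went from a level several times above IGF1R and IFNGR2 into their range.

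**Figure D3:**
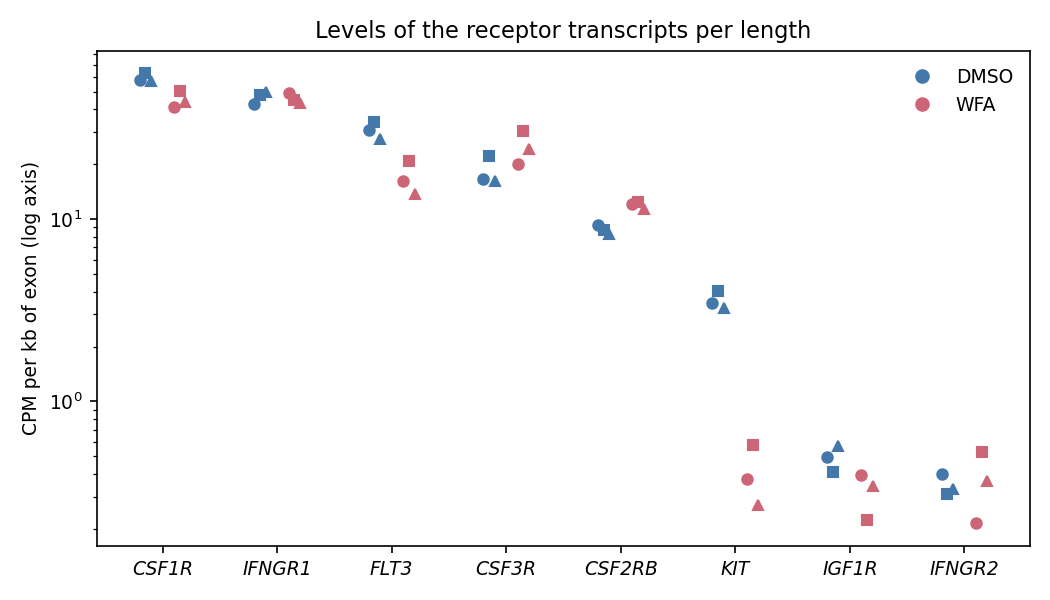
Level of each receptor transcript in CPM per kb of exon (log axis) in each DMSO and WFA library, with symbols for the replicate number as circle, square and triangle for 1, 2 and 3. KIT drops from between 3.26 and 4.02 to between 0.269 and 0.575, the range of IGF1R and IFNGR2.

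The balance between receptors was compared as the log2 ratio of their reads within a library, which does not depend on how libraries are scaled. KIT to FLT3 was -2.72, -2.66 and -2.64 with DMSO and -4.95, -4.73 and -5.19 with WFA. KIT was lower relative to FLT3 in each WFA library, with a difference of -2.28 on the log2 scale (exact permutation p = 0.1, or 0.133 adjusted over 4 ratios). CSF1R to CSF3R, a monocyte receptor against a granulocyte receptor, was 2.02, 1.72 and 2.02 with DMSO and 1.26, 0.92 and 1.07 with WFA. This ratio differed by -0.84 without overlap (exact permutation p = 0.1, or 0.133 adjusted). IGF1R to INSR, which encodes the insulin receptor, differed by -0.83, also without overlap (exact permutation p = 0.1, or 0.133 adjusted). IFNGR1 to IFNGR2 differed by -0.06, less than the SD of either group (exact permutation p = 1). No ratio could reach a p-value under 0.1 with 3 libraries against 3. With the libraries taken as 3 pairs, the exact sign-flip test gave p = 0.25 for the first 3 ratios, the smallest it allows, and p = 1 for IFNGR1 to IFNGR2.

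Ligands of the receptors were counted in the same libraries. Of 11 ligand genes 3 had enough reads to be tested. Of these 3, 2 were higher with WFA, against 25.8% of all tested genes. The median log2 fold change of the 3 was 1.65, against 0.02 over all tested genes. The median rests on few genes and was 0.92 without DMSO replicate 2, 0.96 without WFA replicate 1 or 3, 1.07 without WFA replicate 2 and 1.08 with DESeq2. IGF1, given below, was not among these 3 and was lower with WFA in the fits that included it. KITLG, which encodes stem cell factor, was at 23.6, 17.7 and 17.1 CPM with DMSO and at 67.6, 66.1 and 49.3 CPM with WFA. The ligand of KIT was thus higher in each library in which KIT was lower. KITLG rose 3.13-fold (log2 fold change 1.65, SE 0.14, edgeR adjusted p = 3.17e-07). CSF1, which encodes the macrophage colony-stimulating factor bound by CSF1R, had 10, 8 and 13 reads with DMSO and 67, 52 and 76 reads with WFA. CSF1 rose 6.87-fold from this low level (log2 fold change 2.78, SE 0.30, edgeR adjusted p = 2.51e-06). FLT3LG had between 15 and 24 reads in each library, with a log2 change of 0.35 that did not pass (edgeR adjusted p = 0.362). IGF1 had 26, 9 and 33 reads with DMSO and 7, 4 and 3 reads with WFA, and was below the filter on low counts. Fitted without that filter, its log2 fold change was -2.14 (edgeR adjusted p = 1.18e-05), and it is named here because of these values. P-values of that fit are not comparable with the others. FLT3, for example, had an edgeR adjusted p of 1.08e-14 in it, against 5.64e-05 with the filter. Where IGF1 was tested with a library left out and the filter kept, its log2 fold change was -2.51 to -1.95, with edgeR adjusted p up to 0.0140. IL34, CSF3, CSF2, IL3 and IFNG had no count in any library. A count of 0 allows up to 0.279 CPM.

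**Figure D4:**
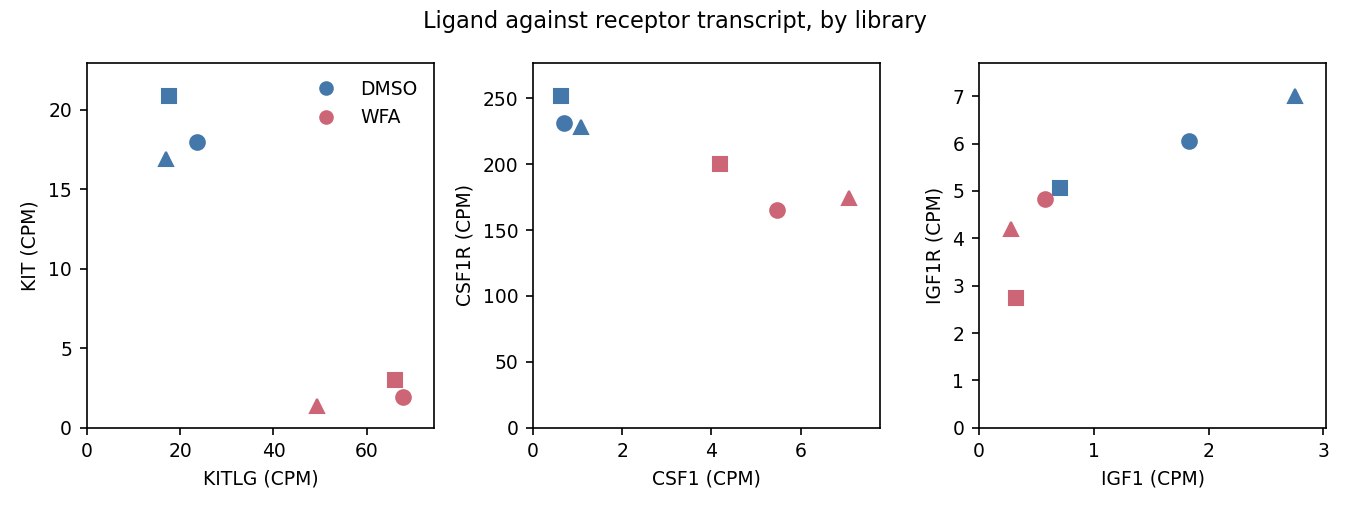
Level of a receptor transcript (CPM, vertical) against that of its ligand (CPM, horizontal) in each library for KIT with KITLG, CSF1R with CSF1, and IGF1R with IGF1. In the WFA libraries KITLG and CSF1 are higher and KIT and CSF1R lower, whereas both IGF1 and IGF1R are lower.

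Chains that pair with these receptors, or belong to related ones, were described next. Of 13 such genes 8 were tested, with 2 higher and 1 lower, against 25.8% higher and 24.7% lower over all tested genes. The median log2 change of this list was 0.25. This median was 0.16 without DMSO replicate 3, without WFA replicate 2 and with total counts. IGF2R, which takes up IGF2 and carries it to lysosomes, rose by 0.67 on the log2 scale (SE 0.13, edgeR adjusted p = 0.000468). IL6ST, the signal chain of interleukin-6 type receptors, rose by 0.47 (SE 0.12, edgeR adjusted p = 0.004). IFNAR2, a chain of the type I interferon receptor, had a log2 change of -0.28 (SE 0.09, edgeR adjusted p = 0.0195), and without DMSO replicate 1 or WFA replicate 3 this call was lost. INSR had a log2 change of 0.19 (edgeR adjusted p = 0.0723), which passed with the replicate number as a block (edgeR adjusted p = 0.0344). P-values of that block fit are not comparable with the others. IL10RB (-0.07), IFNAR1 (0.07), EPOR (0.31) and PDGFRB (0.35) did not pass. CSF2RA and IL3RA, the ligand-binding chains that pair with CSF2RB, were listed at 0 in each library, so the ratio of CSF2RA to CSF2RB could not be formed. Both lie in the pseudoautosomal region, where 16 of 18 protein-coding genes of the table (88.9%) were at 0 in all libraries, against 20.2% of other protein-coding genes. The absence of CSF2RA and IL3RA reads is therefore shared with their neighbours, and whether the cells express these chains was not tested.

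Downstream of the receptors, 26 of 26 proximal signal transducers were tested, with a median log2 change of -0.25. Of these 5 were higher and 12 lower, against 25.8% higher and 24.7% lower over all tested genes. Among the lower ones were PIK3CG, a catalytic subunit of PI3-kinase (-1.01, SE 0.10, edgeR adjusted p = 1.06e-06), the adaptor GRB2 (-0.83, edgeR adjusted p = 2.75e-06) and PIK3AP1 (-0.78). SOS1, the RAS exchange factor that GRB2 carries to receptor kinases, rose by 0.81 (edgeR adjusted p = 1.42e-06). The adaptor SHC1 (0.63) and STAT5B (0.40), a STAT used by CSF2RB, rose as well. For the IFN-gamma receptor, JAK2, the kinase bound by IFNGR2, fell to 60.7% of its DMSO level (log2 fold change -0.72, edgeR adjusted p = 9.92e-06). JAK1, the kinase bound by IFNGR1, had a log2 change of 0.06 (edgeR adjusted p = 0.542). JAK1 and JAK2 were named after their values were seen.

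Inhibitors of receptor signals moved in both directions. Of 19 genes 18 were tested, with 5 higher and 9 lower, against 25.8% higher and 24.7% lower over all tested genes. The median of this list was -0.19. DOK2, an adaptor that restrains receptor kinases, was at 87.9, 88.8 and 64.5 CPM with DMSO and at 300, 337 and 344 CPM with WFA. DOK2 rose 4.06-fold (log2 fold change 2.02, SE 0.12, edgeR adjusted p = 4.40e-09). SOCS3, an inhibitor of CSF3R and other JAK-coupled receptors, rose by 2.11 from few reads (21, 31 and 35 with DMSO and 108, 116 and 119 with WFA). GRB10 (1.24), which binds IGF1R and the insulin receptor, the ubiquitin ligase CBLB (1.08) and SOCS2 (1.03) also rose. Among the 9 that fell were INPP5D, a phosphatase that opposes PI3-kinase (-0.86, edgeR adjusted p = 2.75e-05), the tyrosine phosphatase PTPN2 (-0.67, edgeR adjusted p = 2.95e-05) and the adaptor SLA (-1.06, edgeR adjusted p = 3.13e-05), named after their values were seen.

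IFN-gamma response genes did not move together. Of 23 genes 11 were tested, with 3 higher and 4 lower, against 25.8% higher and 24.7% lower over all tested genes. The median of this list was 0.02. GBP4, an interferon-induced GTPase (-1.36, SE 0.21, edgeR adjusted p = 8.20e-05), APOL3 (-2.05) and NLRC5 (-0.77) fell. IRF1, a transcription factor induced by IFN-gamma, rose by 0.38 (edgeR adjusted p = 0.0142), a call lost without DMSO replicate 2 or WFA replicate 1, and GBP2 rose by 0.46 (edgeR adjusted p = 0.0248), a call lost with DESeq2, with total counts and without DMSO replicate 3, WFA replicate 2 or WFA replicate 3. Of the response genes, HLA-DRA, HLA-DMA, TAP1, PSMB8 and PSMB9 lie in the major histocompatibility region of chromosome 6 and had at most 12 reads per library. In that region 91.1% of 135 protein-coding genes had 20 reads or fewer in each library, against 38.5% of other protein-coding genes, so these response genes could not be compared.

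Regulators of the receptor genes were lower as counted, with 1 of 16 tested genes higher, 10 lower and a median log2 change of -0.63, against 25.8% higher and 24.7% lower over all tested genes. These include GFI1, IRF8, MYB and RUNX1, with falls between -2.68 and -1.15, and the list therefore holds genes already known to fall in these libraries. SPI1, which encodes PU.1 and acts on the CSF1R and CSF3R promoters, had a log2 change of -0.34 that only just passed (edgeR adjusted p = 0.0461) with overlapping groups. With the replicate number as a block SPI1 had a log2 change of -0.35 (edgeR adjusted p = 6.83e-05). P-values of the block fit are not comparable with the others. Without that block, the call of SPI1 was lost with upper-quartile factors and with the robust fit. It was also lost without DMSO replicate 1 or 2 or WFA replicate 1 or 3, and without one of these its log2 change was between -0.32 and -0.22. CEBPA, which acts on the CSF3R promoter, fell by 0.58 on the log2 scale (edgeR adjusted p = 7.54e-05), and CEBPB rose by 0.43 (edgeR adjusted p = 0.0235). The call of CEBPB was lost with total counts and without DMSO replicate 1, DMSO replicate 2 or WFA replicate 3. SPI1 and CEBPA were named after their values were seen.

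**Figure D5:**
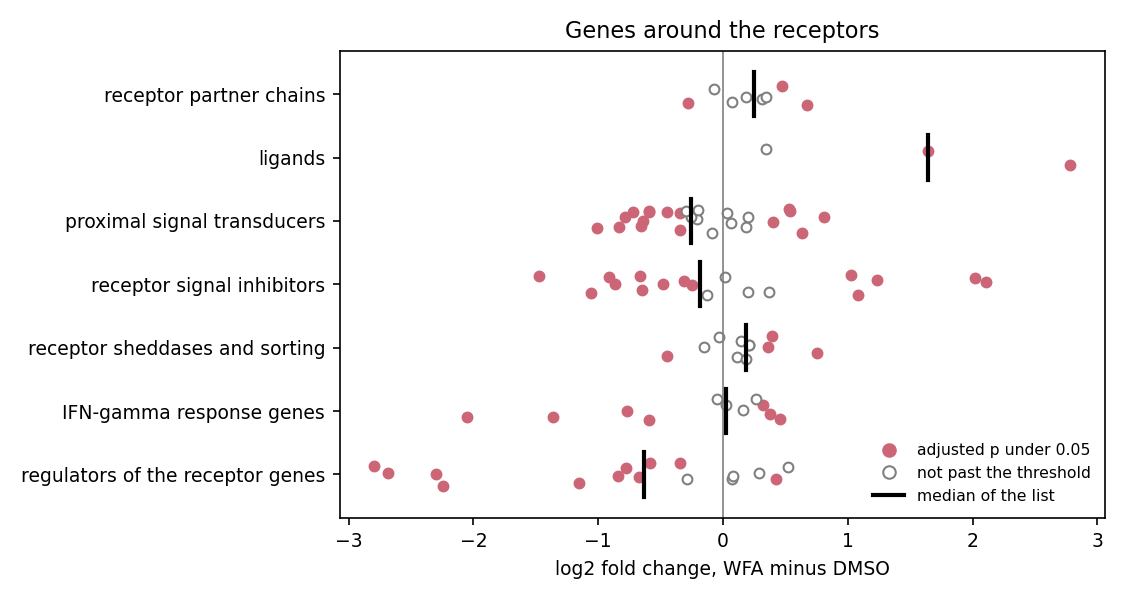
Log2 fold change, WFA minus DMSO, of each tested gene on 7 lists around the receptors (points, filled where the edgeR adjusted p-value was under 0.05), with the median of each list as a bar. The tested ligands, which do not include IGF1, lie to the right and regulators of the receptor genes mostly to the left. Signal inhibitors spread to both sides. Medians lie between -0.63 and 1.65 over the lists.

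Genes whose pattern over the 6 libraries was most like that of a called receptor were found by the root mean square difference of centred log2 CPM, over 11716 genes with an average log2 CPM over 1. For KIT these were ALDH1B1 (0.166) and SERPINB2 (0.214). For FLT3 they were PRMT7 (0.066) and TMEM138 (0.067), and for CSF1R POLR2F (0.031) and MRPS16 (0.031). For CSF2RB they were GIMAP1 (0.019) and PPP1R3B (0.028), and for CSF3R THAP3 (0.066) and PNPLA2 (0.068). For IGF1R they were GJC1 (0.053) and OAS2 (0.111). These are descriptions over 6 libraries that share the treatment, with no test.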

How the data were processed

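THP1 cells exposed to WFA or DMSO for 6 h gave 6 RNA-seq libraries, 3 per group. The libraries were made with a TruSeq RNA v2 kit, which does not mark strand. Raw counts of reads for each gene, as whole numbers, were deposited. The same deposited table holds a score per library (rounded counts after division by a size factor), the mean of these as a signal, and the authors' own comparison as a ratio or fold, a log2 value and p-values, none of which was used. The submitters' processing notes name bcl2fastq 2.19, Trimmomatic, Bowtie2, Picard, featureCounts, DESeq2 and the build hg38. Annotation, strand setting and treatment of multiply mapped reads are not given in the sources used here.

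Counts were fitted with edgeR 4.0.16 in R 4.3.3 (TMM, filterByExpr with a minimum count of 10, quasi-likelihood test). P-values were adjusted by Benjamini-Hochberg over all 12854 tested genes, with a threshold of 0.05. The standard error of a log2 fold change is its size over the root of F. The fits were tested on simulated data. Ratios had 0.5 added to each count and an exact two-sided permutation test. Exon lengths came from GENCODE 29 and coordinates and promoters from RefSeq GRCh38.p14. Precision is set by the totals of 11006035 to 13872810 reads per library, and intervals and floors cover counting error only where they come from counts alone. Alternatives were the replicate block, DESeq2 1.42.0, other scalings and filters, a robust fit and leaving out each library.

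Same-numbered libraries share a replicate number and a label suffix. The methods name independent experiments, and the deviations of same-numbered libraries from their group means correlated at 0.22 to 0.34, against -0.26 to 0.01 for other pairs, so the numbers pair the libraries. The main edgeR fit and the fits with a library left out did not use this pairing. The receptors, the 9 lists and the tests were chosen with earlier results of these data known. Named genes are the receptors, each tested ligand and partner chain, from every other list the 4 genes of smallest p-value plus up to 2 called against its direction, and the 2 genes most like each called receptor. Genes named outside this rule are said to be so, and some genes that it selects are left out of this text.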

Additional observations from a re-analysis of the deposited data

How the results depend on the processing

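Under DESeq2, the other scalings, both other filters, the robust fit and the replicate block, the same 2 receptors rose and the same 4 fell. Blocking on the replicate number gave log2 changes of -3.13 for KIT and -0.89 for FLT3. With this block IGF1R was at -0.62 (edgeR adjusted p = 0.00251) and CSF3R at 0.435 (edgeR adjusted p = 2.53e-06). P-values of the block fit are not comparable with those of the main fit. FLT3, for example, had an edgeR adjusted p of 1.03e-23 with the block, against 5.64e-05 without it. The replicate block changed no other call of a named gene than those of INSR and CTSG (0.30, edgeR adjusted p = 0.000666). The fits with a library left out had no block. With each library left out in turn, 1 to 2 receptors were higher, and the log2 changes ranged from -3.45 to -2.90 for KIT, 0.27 to 0.59 for CSF3R, -0.81 to -0.42 for IGF1R, -0.11 to 0.003 for IFNGR1 and -0.28 to 0.37 for IFNGR2. The difference of IFNGR1 to IFNGR2 ranged from -0.44 to 0.24. IFNGR1 turned sign without DMSO replicate 3 and IFNGR2 without WFA replicate 2. IFNGR2 was not tested under the filter of 1 CPM. The median of the IFN-gamma response genes was -0.35 with DESeq2 and -0.31 with no filter, fits that each tested more genes (18328). This median was -0.061 with total counts and between -0.005 and 0.081 with a library left out. That of the THP1 markers was -0.05 with total counts and between -0.029 and 0.103 with a library left out, and IFNAR1 and JAK1 were at -0.017 and -0.021 with total counts, which moved the median of all tested genes from 0.02 to -0.06. Total counts leave out the TMM factors, which were 1.015 to 1.049 with DMSO and 0.964 to 0.978 with WFA. Why medians moved with a library left out was not tested. TIMP3 lost its call under DESeq2. Few reads limit the precision for IFNGR2, IGF1R, FLT3LG, CSF1 and IGF1, among others.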

Other observations

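Genes that release receptors from the cell surface or sort them after uptake were also measured. All 11 were tested, with 3 higher and 1 lower with WFA and a median log2 change of 0.18, or 0.096 with total counts. That is 4 of 11 called, against 50.5% of all tested genes. ADAM17, a protease that cuts CSF1R, KIT and other receptors from the surface, was at 96.0, 97.1 and 113 CPM with DMSO and at 183, 164 and 170 CPM with WFA. ADAM17 rose 1.69-fold without overlap of the groups (log2 fold change 0.76, SE 0.09, edgeR adjusted p = 7.69e-06). RAB7A (0.37, edgeR adjusted p = 0.00273), which directs endosomes to lysosomes, and HGS (0.40, edgeR adjusted p = 0.00813), which sorts ubiquitinated receptors, rose as well. TIMP3, an inhibitor of ADAM17, had a log2 change of -0.45 (edgeR adjusted p = 0.0222), a call that was lost with DESeq2 (-0.47) and without DMSO replicate 1, WFA replicate 2 or WFA replicate 3.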
